A study of Mus musculus with 28 samples.

Results

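The Stat (signal transducer and activator of transcription) and Irf (interferon regulatory factor) genes are described here in bone marrow-derived dendritic cells stimulated with lipopolysaccharide (LPS). Members were the rows of both tables that carry a name made of Stat or Irf and a number. Described here from the RNA table are 8 rows of 3147, namely Stat2, Stat3, Stat5a, Stat5b, Stat6, Irf3, Irf4 and Irf5, and all 8 passed the filter on low values. From the footprint table they are 12 of 6250, the same 8 genes and Irf1, Irf2, Irf8 and Irf9. Cells came from the marrow of female C57BL/6J mice aged 6 to 8 weeks, were cultured with GM-CSF at 20 ng per ml and were treated on day 9 of culture. The LPS groups received LPS at 100 ng per ml for 1, 2, 4, 6, 9 or 12 h, the mock groups received no stimulus for the same times, and a 0 h group was taken at the start. There were 2 RNA libraries per group, 26 in all, and 2 further libraries held ribosome footprints, the mRNA fragments protected by ribosomes, of unstimulated cells treated briefly with cycloheximide. All cells of the time course, mock included, grew in medium for isotope labelling of proteins that was exchanged at 0 h; the labels do not say this of the footprint cells.

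Stat proteins wait in the cytoplasm, are phosphorylated by Janus kinases at cytokine and interferon receptors, pair up and enter the nucleus. Stat2 and Irf9 belong to Isgf3, the complex that switches on interferon-stimulated genes after type I interferon, and Stat5a and Stat5b carry the signal of GM-CSF, the cytokine that these cells are grown in. LPS engages Toll-like receptor 4, whose Trif branch activates Irf3 through the kinases Tbk1 and Ikbke, while Irf5 acts on the Myd88 branch and Irf4 can compete with it there. Irf4 is also known for its part in the development of a subset of dendritic cells.

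The bases before the start sites of Stat2, Stat5a and Irf4 are printed because Stat2 and Stat5a had the largest member differences at 2 h, and Irf4 and Stat5a passed at 1 h. They are RefSeq promoters of the GRCm38.p6 build, shown 5′ to 3′ as the 250 bases upstream of the start site, on the plus strand. Capitals mark matches to a searched motif.
Stat2, chr10:128270248-128270497: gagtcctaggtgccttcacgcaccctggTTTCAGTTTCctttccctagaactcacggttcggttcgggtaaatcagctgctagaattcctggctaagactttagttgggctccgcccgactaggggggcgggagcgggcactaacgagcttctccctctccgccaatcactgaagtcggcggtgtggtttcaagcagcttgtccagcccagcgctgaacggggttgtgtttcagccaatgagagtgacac
Stat5a, chr11:100860234-100860483: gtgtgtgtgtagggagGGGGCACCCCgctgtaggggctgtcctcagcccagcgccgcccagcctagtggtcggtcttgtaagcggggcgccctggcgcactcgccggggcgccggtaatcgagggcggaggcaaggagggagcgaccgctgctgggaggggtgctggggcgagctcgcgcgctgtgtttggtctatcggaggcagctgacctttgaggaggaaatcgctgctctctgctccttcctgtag
Irf4, chr13:30748983-30749232: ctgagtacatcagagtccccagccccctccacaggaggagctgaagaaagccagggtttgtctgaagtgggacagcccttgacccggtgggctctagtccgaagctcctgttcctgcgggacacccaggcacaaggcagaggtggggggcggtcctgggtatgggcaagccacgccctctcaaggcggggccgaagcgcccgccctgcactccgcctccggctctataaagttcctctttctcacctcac
Motifs were searched on both strands of the window from 250 bases before to 50 after each start site. They were a Stat site (TTCNNNGAA), an Irf site (GAAANNGAAA) and an NF-kB site. Among 32851 promoter windows of the same length, 8.3% held the Stat site, 3.44% the Irf site and 4.51% the NF-kB site. All 8 RNA members had a promoter entry. The Stat2 window held an Irf site read on the opposite strand, with its first base at -222 from the start site. Stat5a has 2 listed start sites, and the window shown held an NF-kB site with its first base at -234, while the other held no match. The windows of Irf3, Irf4, Irf5, Stat3, Stat5b and Stat6 held none of these letters. Among members read by footprints alone, Irf1 held a Stat site at -90 and an NF-kB site at -13, Irf2 a Stat site at -224, an Irf site at -241 and an NF-kB site at -17, and Irf8 Stat sites at -171 and -153. On chromosome 11 the coding genes Stat5b, Stat5a and Stat3 stand next to each other.

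RNA levels are in TPM, a transcript abundance scaled for length that sums to 1000000 in each library over the listed genes, so it is relative and holds no sequencing depth. Differences are on the scale of log2(TPM + 1), with moderated standard errors (SE), and a gene is said to have risen or fallen where limma, adjusted by Benjamini-Hochberg across the 3147 genes, gave p under 0.05. Whether both libraries of a group stem from different cultures is not in the labels, and the p-values then reflect library-to-library spread that may be technical. The median gene shifted too: LPS minus mock had a median over all genes of -0.05, -0.16, -0.46, -0.44, -0.44 and -0.39 at 1, 2, 4, 6, 9 and 12 h, and differences relative to this shift, or calls after rescaling each library by its median ratio, are given for the falls below. At 4 h 275 genes rose and 918 fell, against 445 and 405 after that rescaling. The dendritic cell markers Cd74, H2-Aa, H2-Ab1, Itgax and Clec10a averaged 7350 ± 4921, 3460 ± 1061, 3033 ± 845, 865 ± 315 and 258 ± 30.1 TPM at 0 h (SD, n = 2). Of the marker lists, 5 of 12 dendritic cell genes, 7 of 12 macrophage genes and 7 of 15 granulocyte genes were measured, and none of the B cell, T and NK cell, mast cell or erythroid ones. Summed macrophage markers ranged from 8106 to 39699 TPM in LPS libraries, from 11174 to 43069 in mock libraries and from 16485 to 57664 at 0 h. Summed granulocyte markers ranged from 1165 to 8678 TPM in LPS libraries, from 2492 to 11097 in mock libraries and from 3173 to 3200 at 0 h. Summed dendritic markers ranged from 7381 to 20971 TPM in LPS libraries, from 9082 to 18957 in mock libraries and from 9937 to 19994 at 0 h. The LPS libraries lay wholly below mock at 0 of 6 times for the dendritic sum, at 1 for the macrophage sum and at 2 for the granulocyte sum, and wholly above at none. Single markers moved within these sums, of which Lyz2 was the most abundant at 0 h. Clec10a and the macrophage marker Mrc1 fell at 4 times, with -4.66 and -3.62 at 12 h, Fcgr1 rose at 4 times, with 2.41 at 12 h, Cd14 rose at 2 h, Csf1r fell at 4 h and the granulocyte marker S100a9 fell at 9 h and 12 h. After median-ratio rescaling the falls of Csf1r and S100a9 did not pass, nor did that of Mrc1 at 4 h (-0.58). All 3 sums were higher in replicate 1 than in replicate 2 in 13 of 13 groups. So was Stat5a, with Irf3 and Irf4 higher in replicate 1 in 12 groups, Stat5b in 11 and Irf5 and Stat6 in 9, whereas Stat2 was higher in replicate 1 in 3 groups and Stat3 in 4. The part of cell makeup in any result was not tested.

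In unstimulated cells Irf5 was the most abundant member RNA and Stat5b the least. At 0 h Irf5 had 519.7 and 445 TPM in replicates 1 and 2, Stat6 121 and 96.5, Irf4 109 and 69.9 and Stat3 73.0 and 73.9. Stat2 had 64.4 and 44.1 TPM at 0 h, Irf3 43.5 and 19.4, Stat5a 36.9 and 23.8 and Stat5b 25.7 and 14.9. Irf5 stood above all others without overlap, Stat3 stood above Stat2 and Stat2 above Irf3, and the other neighbours in this order overlapped. Mock cells stayed near these levels. In mock minus 0 h, 0 of 8 members passed the limma test at any of the 6 times (background: 0% of genes), and 0 members had an unadjusted p under 0.05, against 25 to 70 of all genes. The smallest unadjusted member p was 0.0735, for Stat2 at 2 h.

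LPS changed the RNA of 6 of the 8 members over the time course, by an F test that called 57.2% of all genes. With 8 members, whether this count exceeds that share was not tested. Stat2 and Stat5a rose early, Stat3 later, Stat5b passed at 9 h and 12 h, Irf4 rose and then fell, and Irf5 fell at 2 h and 4 h. The F test over the 6 times called Stat2 (adjusted p = 6.5e-11), Stat5a (2.26e-09), Stat3 (6.48e-07), Irf5 (6.33e-04), Irf4 (0.00382) and Stat5b (0.00437), where the background was 57.2% of all genes. Irf3 (0.364) and Stat6 (0.305) did not pass, but Stat6 passed after median-ratio rescaling and Irf3 without replicate 1 of LPS 9 h.

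**Figure D1:**
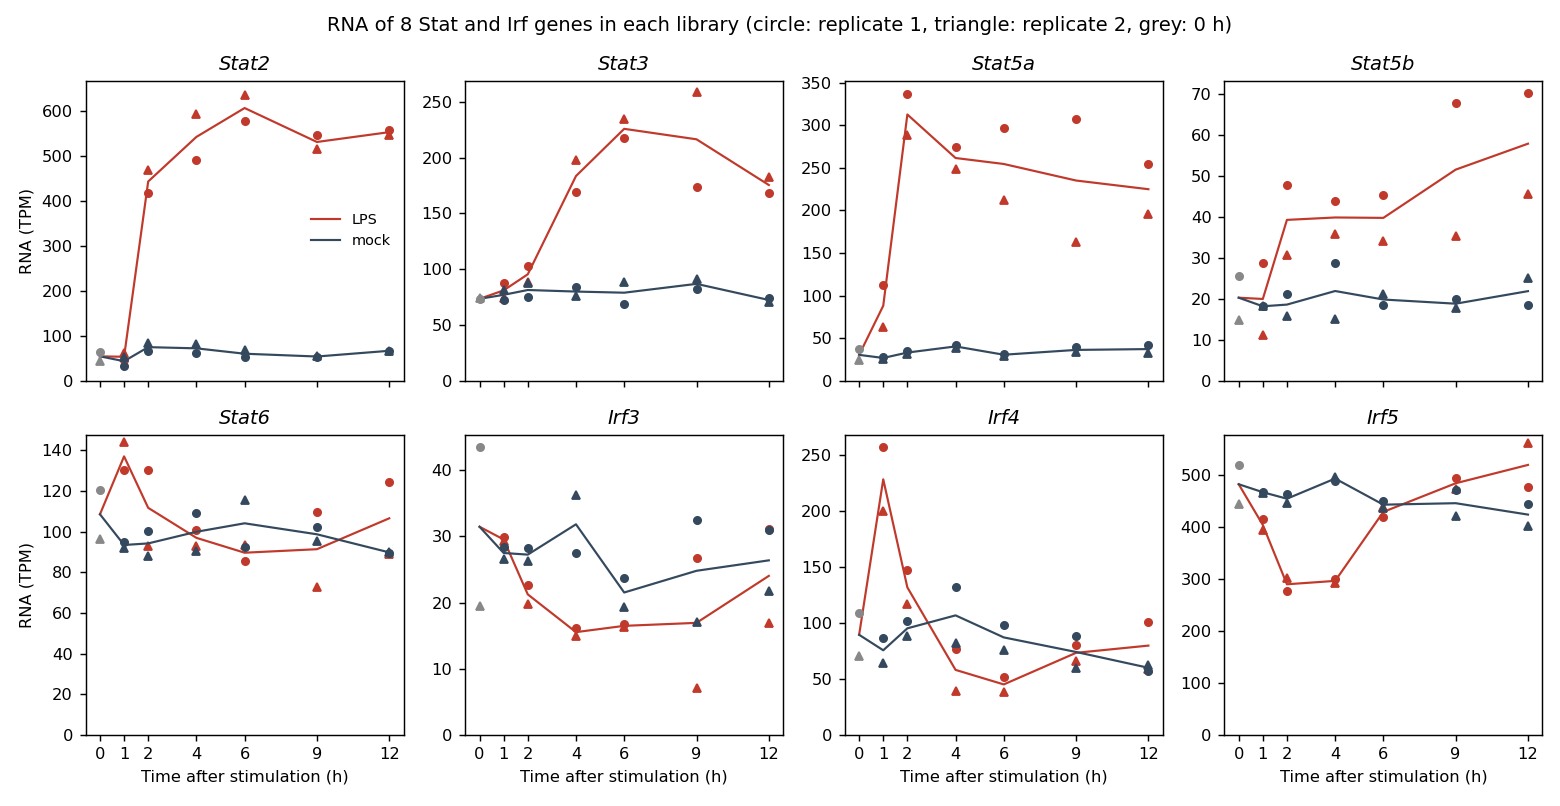
RNA level in TPM of each Stat and Irf gene (y axis, linear, from 0) against time in hours, with LPS in red, mock in dark blue and the 0 h libraries in grey; circles are replicate 1, triangles replicate 2 and lines join group means. Stat2 and Stat5a separate from mock by 2 h, Stat3 by 4 h, and Irf4 peaks at 1 h.

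By time, 2 members rose and 0 fell at 1 h, where 3.27% of all genes rose and 0.794% fell. At 2 h 2 rose and 1 fell, against 6.39% and 8.04% of all genes. The 4 h comparison had 3 rises (8.74% of all genes) and 1 fall (29.2%). The 6 h comparison also had 3 rises (11.2%) and 1 fall (30%). Later, 4 members rose and 0 fell both at 9 h, against 10.1% and 30% of all genes, and in the 12 h comparison, against 10% and 26.8%. The median difference over the 8 members was 0.21, 0.34, 0.43, 0.46, 0.70 and 0.81 at 1, 2, 4, 6, 9 and 12 h. The LPS libraries lay wholly above mock for 4, 5, 4, 4, 5 and 5 members at these times, against 23.5%, 18.8%, 15.5%, 18.7%, 15.6% and 19.1% of all genes. They lay wholly below mock for 1, 2, 3, 2, 0 and 0 members, against 25.3%, 35.4%, 58.2%, 50.4%, 47.9% and 49.3% of all genes. In bulk RNA, more cells that express a gene and more RNA per cell cannot be told apart.

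Stat2, the Isgf3 subunit that binds Irf9, rose 5.91-fold by 2 h and stayed high. LPS replicate 1 had 46.0, 417, 491, 577, 546 and 559 TPM at 1, 2, 4, 6, 9 and 12 h, and LPS replicate 2 had 60.6, 469, 594, 637, 516 and 547. The 12 mock libraries had between 33.2 and 84.3 TPM, with a median of 63.4. From 2 h on every LPS library was above every mock library, while at 1 h LPS and mock overlapped. LPS minus mock was 0.32 ± 0.245 at 1 h (adjusted p = 0.515), 2.56 ± 0.245 at 2 h (adjusted p = 1.45e-06), 2.90 at 4 h, 3.32 at 6 h (adjusted p = 1.88e-08), 3.28 at 9 h and 3.04 at 12 h. The step between LPS 2 h and LPS 1 h alone was 3.04 (adjusted p = 4.64e-07), and no later step of Stat2 passed.

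Stat5a, a Stat of GM-CSF signalling, rose at 1 h already and had the largest difference of any member at 2 h. Over the times of 1, 2, 4, 6, 9 and 12 h, LPS replicate 1 had 113, 336, 274, 297, 307 and 255 TPM and LPS replicate 2 had 63.7, 289, 249, 212, 163 and 195. The 12 mock libraries had between 25.2 and 41.7 TPM, with a median of 33.1, and each of the 12 LPS libraries was above all of them. The log2 difference was 1.63 ± 0.30 at 1 h (adjusted p = 0.00398), 3.20 ± 0.30 at 2 h (adjusted p = 1.38e-06), 2.67 at 4 h, 3.00 at 6 h, 2.60 at 9 h and 2.56 at 12 h (adjusted p = 6e-06). The 1 h call was lost in a fit to the 2 groups compared alone (adjusted p = 0.143). Among all 3147 genes Stat5a ranked at 22 by fold at 2 h and at 75 at 12 h.

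Stat5b, its near-identical neighbour, stood at a lower level and passed at 9 h and 12 h. LPS replicate 1 had 28.7, 47.9, 44.0, 45.4, 67.7 and 70.3 TPM at 1, 2, 4, 6, 9 and 12 h, and LPS replicate 2 had 11.2, 30.7, 35.8, 34.1, 35.4 and 45.6. The 12 mock libraries had between 15.2 and 28.6 TPM, with a median of 18.6. LPS was wholly above the mock of its time from 2 h on, but the 2 LPS libraries lay far apart. LPS minus mock was -0.01 at 1 h, 1.02 at 2 h (adjusted p = 0.124), 0.89 at 4 h, 0.96 at 6 h (adjusted p = 0.079), 1.34 ± 0.42 at 9 h (adjusted p = 0.0179) and 1.35 ± 0.42 at 12 h (adjusted p = 0.0187). The 9 h call was lost without replicate 1 of mock (1.42), replicate 2 of mock (1.26) or replicate 1 of LPS (0.88), and the 12 h call without replicate 1 of mock (1.14) or of LPS (1.04). In a fit to the 2 groups compared alone the 9 h call was lost (adjusted p = 0.077) and the 6 h value passed (adjusted p = 0.0471). After median-ratio rescaling Stat5b also passed at 4 h and 6 h, at 1.33 and 1.37, and with quantile normalization at 2 h (1.30), 4 h and 6 h (1.45). A term for the replicate number, without rescaling, gave calls at 2 h, 4 h and 6 h (limma adjusted p = 0.0199, 0.0205 and 0.0134). The time of its first call thus depends on the scaling and on the fit. Stat5a and Stat5b share much of their sequence, so reads between them could have been split by the authors' counting and the values of both are uncertain to that extent. Stat5a over Stat5b within a library ranged from 3.62 to 9.42 in the 12 LPS libraries (median 5.93), against 1.31 to 2.56 in the 12 mock libraries (median 1.68), with no overlap. At 0 h it was 1.44 and 1.60.

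**Figure D2:**
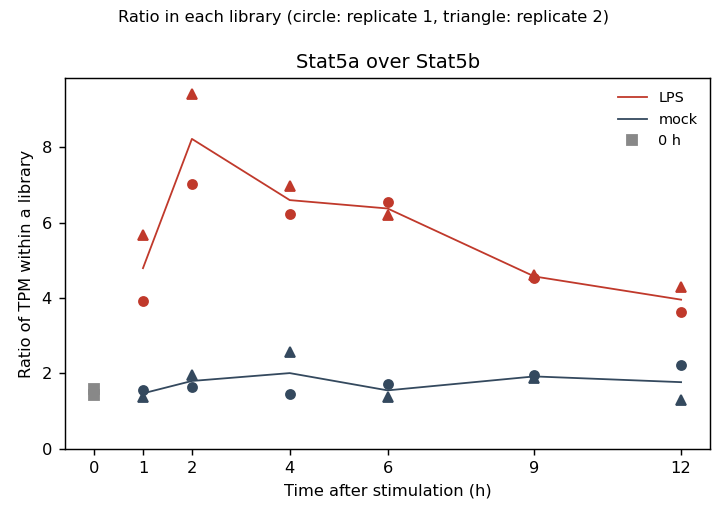
Ratio of TPM within each library (y axis) against time in hours for Stat5a over Stat5b, with LPS in red, mock in dark blue and 0 h as grey squares; circles are replicate 1, triangles replicate 2, and lines join means of the 2 libraries. The LPS libraries, from 3.62 to 9.42, are above all mock libraries, from 1.31 to 2.56.

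Stat3, which carries signals of interleukin 6 and interleukin 10, rose from 4 h on. At 1, 2, 4, 6, 9 and 12 h its level was 88.0, 103, 169, 217, 174 and 169 TPM in LPS replicate 1, with 74.1, 88.3, 198, 234, 259 and 182 in LPS replicate 2. The 12 mock libraries had between 68.9 and 91.2 TPM, with a median of 78.6, and all LPS libraries from 4 h on were above them. On the log2 scale LPS minus mock was 0.07 at 1 h, 0.23 at 2 h, 1.19 ± 0.20 at 4 h (adjusted p = 1.7e-04), 1.52 at 6 h (adjusted p = 1.27e-05), 1.28 at 9 h and 1.27 at 12 h. The 9 h call was lost in a fit to the 2 groups compared alone (adjusted p = 0.0582). Stat6, the Stat of interleukin 4, passed at no time. Its LPS libraries had between 73.0 and 144 TPM (median 97.2, n = 12), its mock libraries between 88.2 and 116 (median 93.8, n = 12), and they separated at 1 h alone, with 130.2 and 144 TPM in LPS cells against 94.9 and 92.1 in mock cells. That difference was 0.55 ± 0.23 (adjusted p = 0.2), and after median-ratio rescaling Stat6 passed at 12 h (0.59).

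**Figure D3:**
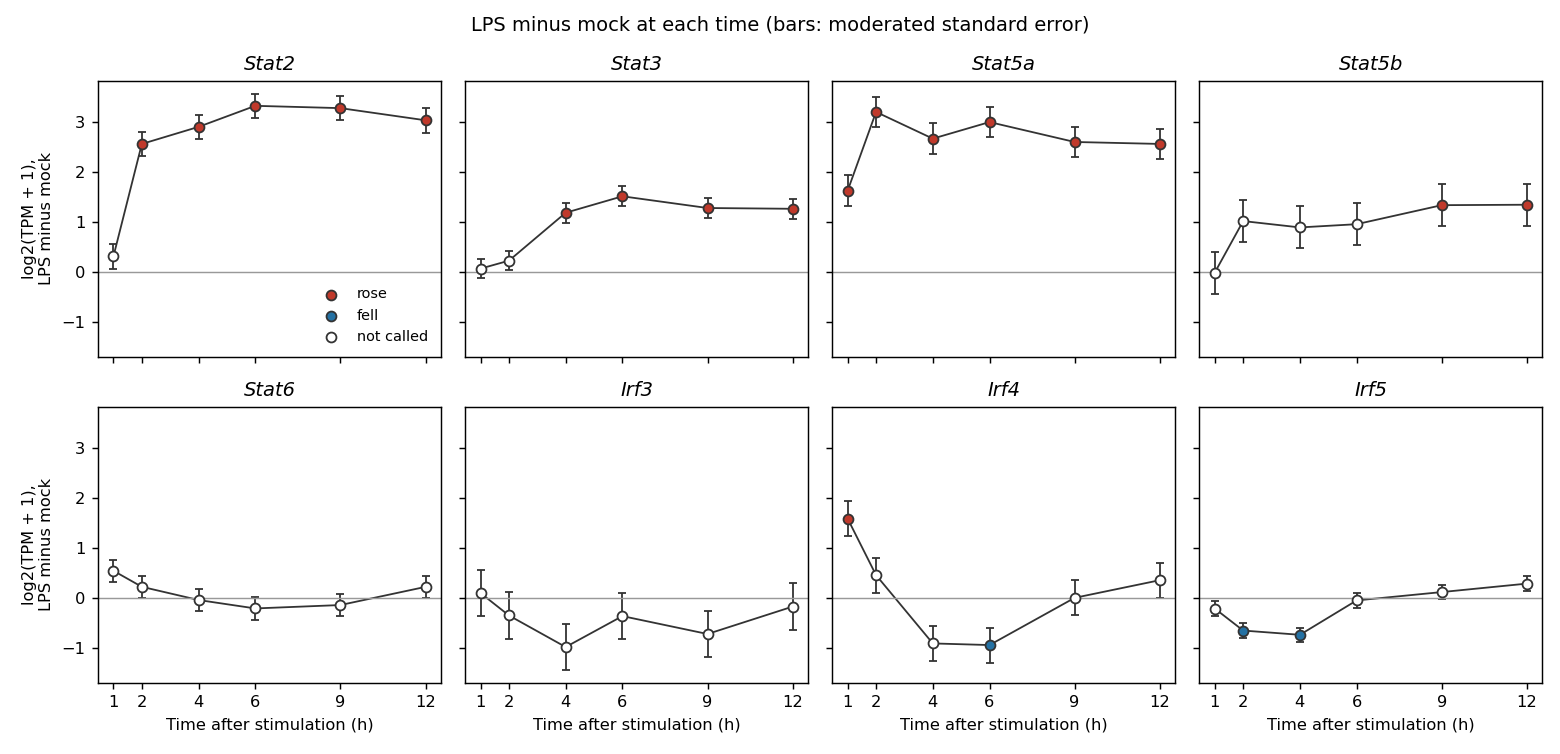
LPS minus mock on the log2(TPM + 1) scale (y axis) against time in hours for each of the 8 genes; bars are moderated standard errors, red points rose, blue points fell and open points did not pass. Stat2 stays near 3 from 4 h on, Irf4 is at 1.59 at 1 h and at -0.94 at 6 h, and Irf5 dips at 2 h and 4 h.

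Irf4 rose at 1 h and was below mock by 4 h and 6 h. Over the times of 1, 2, 4, 6, 9 and 12 h, LPS replicate 1 had 257, 147, 76.8, 51.3, 80.6 and 101 TPM and LPS replicate 2 had 199, 116, 39.1, 38.6, 65.7 and 58.7. Mock replicate 1 had 86.5, 101, 132, 98.0, 88.3 and 56.9 TPM at 1, 2, 4, 6, 9 and 12 h, and mock replicate 2 had 64.4, 88.5, 81.5, 75.8, 59.5 and 62.7. LPS was wholly above mock at 1 h and 2 h, wholly below at 4 h and 6 h, and overlapped it at 9 h and 12 h. The log2 difference was 1.59 ± 0.35 at 1 h (adjusted p = 0.0138), 0.46 at 2 h, -0.91 at 4 h (adjusted p = 0.0509), -0.94 ± 0.35 at 6 h (adjusted p = 0.0407), 0.01 at 9 h and 0.36 at 12 h. The 1 h call was lost without replicate 2 of mock (1.38) or replicate 1 of LPS (1.41), and in a fit to the 2 groups compared alone the calls at 1 h (adjusted p = 0.105) and 6 h (adjusted p = 0.0548) were lost. The 4 h value passed without replicate 2 of mock (-1.25) or replicate 1 of LPS (-1.38). The 6 h call was lost without any 1 of its 4 libraries (values from -1.14 to -0.74), with median-ratio rescaling (-0.52) and with quantile normalization (-0.64). Relative to the median gene, Irf4 stood at -0.45 at 4 h and -0.50 at 6 h. With a term for the replicate number the 4 h value passed (limma adjusted p = 9.64e-04).

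Irf5, a factor of inflammatory cytokine genes, fell at 2 h and 4 h relative to the listed genes and did not pass from 6 h on. At 1, 2, 4, 6, 9 and 12 h its level was 415, 278, 301, 419, 495 and 476 TPM in LPS replicate 1, with 393, 302, 292, 439, 474 and 563 in LPS replicate 2. The 12 mock libraries had between 403 and 497 TPM, with a median of 456, so the 4 LPS libraries of 2 h and 4 h were below all of them. LPS minus mock was -0.21 at 1 h, -0.65 ± 0.14 at 2 h (adjusted p = 0.00481), -0.73 ± 0.14 at 4 h (adjusted p = 7.05e-04), -0.05 at 6 h, 0.12 at 9 h and 0.29 at 12 h (adjusted p = 0.124). Relative to the median gene, Irf5 stood at -0.49 at 2 h, -0.27 at 4 h and 0.68 at 12 h. With median-ratio rescaling the 4 h call was lost (-0.28) and Irf5 passed as higher at 9 h (0.55) and 12 h (0.66), and the 2 h call was lost without replicate 1 of LPS 2 h (-0.59) and in a fit to the 2 groups compared alone (adjusted p = 0.129).

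Irf3, the factor that Tbk1 activates downstream of Toll-like receptor 4, passed at no time in the fit over all groups. Its LPS libraries had between 7.08 and 31.2 TPM (median 18.3, n = 12) and its mock libraries between 17.1 and 36.3 (median 27.0, n = 12). At 4 h it had 16.1 and 15.0 TPM in LPS cells against 27.4 and 36.3 in mock cells, without overlap, a log2 difference of -0.98 ± 0.46 (adjusted p = 0.108). In a fit to the 4 h LPS and mock libraries alone this difference passed (adjusted p = 0.0276), and after median-ratio rescaling of all groups it was -0.54 and did not. It also passed with a term for the replicate number (limma adjusted p = 0.0314). At 9 h LPS replicates 1 and 2 had 26.8 and 7.08 TPM. The 9 h difference was -0.72, was -1.61 and passed without LPS replicate 1, and was 0.17 without LPS replicate 2.

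Steps between successive LPS times placed the changes in the course. Between 0 h and LPS 1 h, Stat5a rose by 1.48 (adjusted p = 0.00861) and Irf4 by 1.37 (adjusted p = 0.0376), where 2.7% of all genes rose. Without replicate 2 of 0 h these were 1.18 and 1.05, without replicate 1 of LPS 1 h 1.08 and 1.18, and neither then passed, and Irf4 also failed without replicate 2 of LPS 1 h (1.55). Between LPS 1 h and LPS 2 h, Stat2 rose by 3.04 and Stat5a by 1.87 (adjusted p = 0.00113), against 2.22% of all genes, and 0 members fell, against 2.8%. Between LPS 2 h and LPS 4 h, Stat3 rose by 0.94 (adjusted p = 0.00554; 3.15% of all genes rose) and Irf4 fell by 1.24 (adjusted p = 0.0322; 7.24% fell). The Stat3 step was lost without replicate 2 of LPS 2 h (0.83) or of LPS 4 h (0.82). The Irf4 step was lost without either replicate of LPS 2 h (-1.07 and -1.40), without replicate 2 of LPS 4 h (-0.76) and with median-ratio rescaling (-0.99) or quantile normalization (-0.94). After 4 h 0 members passed in limma at any step, with 1 member at an unadjusted p under 0.05 between 4 h and 6 h (Irf5, 0.53), and 0 at the later steps. Among all genes 11, 8 and 6 passed at these 3 steps, with 0.0636%, 0.254% and 0.191% rising and 0.286%, 0% and 0% falling.

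The late effect (mean of 6, 9 and 12 h) was tested against the early effect (mean of 1 and 2 h) in the same fit. Stat2 had a late effect of 3.21 and an early effect of 1.44, a difference of 1.77 (adjusted p = 2.07e-05), and Stat3 1.35 late and 0.15 early, a difference of 1.21 (adjusted p = 1e-04). Irf5 had 0.12 late and -0.43 early, a difference of 0.55 (adjusted p = 0.0044), and Irf4 -0.19 late and 1.02 early, a difference of -1.22 (adjusted p = 0.00873). These 3 rises compare with 8.17% of all genes and the 1 fall with 22.2%. Stat5a had 2.72 late and 2.42 early, a difference of 0.31 ± 0.28 (adjusted p = 0.437). Stat5b at 0.71 (adjusted p = 0.181), Stat6 at -0.43 and Irf3 at -0.29 did not pass either. Stat5b was 1.03 without replicate 1 of LPS 1 h, and it passed with median-ratio rescaling (1.03) or quantile normalization (0.99). It passed as well with a term for the replicate number (limma adjusted p = 0.0452).

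The order of member RNAs changed with LPS. At LPS 2 h Stat2 led with 443 TPM on average, followed by Stat5a with 313 and Irf5 with 290, where Stat5a and Irf5 overlapped. At LPS 12 h Stat2 led with 553, followed by Irf5 with 519, and both overlapped, while Stat5a followed with 225 without overlap. At mock 12 h Irf5 led with 424, followed without overlap by Stat6 with 89.8 and Stat3 with 72.4.

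Genes outside the family were ranked by how closely the means of their 13 groups followed each member on the log scale (Pearson r, n = 13 group means, with the 0 h mean and all libraries shared). Stat2 was followed most closely by Irgm1, an interferon-inducible GTPase (r = 0.995), Rasa4 and Cmpk2. Stat5a was followed by Trex1, a DNA exonuclease (r = 0.997), Parp14 and BC006779, Stat5b by Xaf1 (r = 0.972), Trim25 and the row of Oas1g and Oas1a, and Stat3 by the row of Fmnl2 (r = 0.987) and Chmp4b. Likeness was lower for the others: Irf5 with Abi3 (r = 0.972), Ssh3 and Pef1, Irf3 with Ruvbl2 (r = 0.965), Ythdf3 and Mars, Irf4 with Gtpbp4 (r = 0.931), Ankrd44 and the row of Mgea5, and Stat6 with Srrm2 (r = 0.878), Sf3b1 and Wasf2. Within the family Stat2 and Stat5b followed each other at r = 0.968 and Stat2 and Stat5a at 0.950, while Irf4 was closest to Stat6 at 0.861.

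The genes around these factors were taken from lists made from general knowledge, but with earlier results of these data known. Their counts beside the shares of all genes are therefore a description and no test of the lists. At 1, 2, 4, 6, 9 and 12 h 3.27%, 6.39%, 8.74%, 11.2%, 10.1% and 10% of all genes rose while 0.794%, 8.04%, 29.2%, 30%, 30% and 26.8% fell. The list of interferon-stimulated genes with Isgf3 sites is named from general knowledge, and no such site was searched for in them. Of 32 listed genes 25 were measured. Of these 8, 19, 25, 25, 25 and 24 rose at 1, 2, 4, 6, 9 and 12 h and 0 fell. Their median difference was 0.64, 1.83, 3.59, 4.09, 3.65 and 3.46 at these times. Rsad2, the antiviral protein viperin, averaged 3342 ± 39.7 TPM in LPS cells and 17.0 ± 3.42 TPM in mock cells at 2 h (SD, n = 2 each), a log2 difference of 7.55 ± 0.55. Cmpk2, a mitochondrial nucleotide kinase, had 1.41 at 1 h, which did not pass. Its 1 h LPS libraries averaged 12.8 ± 11.6 TPM (SD, n = 2), and it rose by 6.26 at 2 h. Oasl1, an oligoadenylate synthetase-like protein, rose by 4.36 at 1 h, and Rsad2 by 3.67. Whether any of these rises depended on Stat2 was not tested.

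Upstream of the Irf proteins, 9 of 17 listed genes were measured. The list holds Toll-like receptor adaptors and kinases, and also Cd14, Tmem173 and Mavs, which are neither. Of those measured, 1, 3, 2, 5, 3 and 4 rose and 0, 1, 3, 1, 2 and 2 fell at the 6 times. After median-ratio rescaling 1, 4, 5, 6, 4 and 4 rose and 0, 1, 1, 1, 0 and 0 fell. Of all 3147 genes 111, 253, 445, 568, 508 and 526 then rose and 33, 163, 405, 464, 404 and 436 fell. Before rescaling 3.27%, 6.39%, 8.74%, 11.2%, 10.1% and 10% of all genes rose and 0.794%, 8.04%, 29.2%, 30%, 30% and 26.8% fell. Tank, a scaffold of the Tbk1 kinases, rose at every time, with 1.55 at 1 h and 2.67 at 6 h. Ikbke, which phosphorylates Irf3, rose from 2 h on and reached 1.70 ± 0.21 at 9 h. Cd14, the LPS co-receptor, rose at 2 h alone (2.68 ± 0.84, adjusted p = 0.0423). Irak4, a kinase of the Myd88 branch, fell from 2 h on, by 0.99 at 6 h, Tmem173, the STING adaptor, fell by 1.55 at 4 h, and Mavs, the adaptor of RNA sensing, fell by 1.59 at 4 h. Relative to the median gene these stood at -0.55, -1.09 and -1.13, and after rescaling Irak4 passed at 2 h and 6 h and Tmem173 at 4 h, while Mavs did not pass. Of the receptors 1 of 18 was measured, Csf2ra, the GM-CSF receptor alpha chain, and of the Janus kinases 1 of 4, Jak1, and neither passed at any time, though Jak1 passed as higher at 4 h and 9 h after rescaling.

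Inhibitors of Stat or Irf signalling were measured for 7 of 19 listed, of which 0, 1, 1, 1, 2 and 3 rose and 0, 1, 3, 2, 1 and 0 fell at the 6 times. After rescaling 0, 1, 3, 3, 3 and 4 rose and 0, 1, 1, 1, 0 and 0 fell. Of all 3147 genes 111, 253, 445, 568, 508 and 526 then rose and 33, 163, 405, 464, 404 and 436 fell. Of all genes 3.27%, 6.39%, 8.74%, 11.2%, 10.1% and 10% rose and 0.794%, 8.04%, 29.2%, 30%, 30% and 26.8% fell before rescaling. Trim21, a ubiquitin ligase that acts on Irf proteins, averaged 88.6 ± 16.0 TPM in LPS cells and 5.51 ± 0.637 TPM in mock cells at 4 h (SD, n = 2 each), a log2 difference of 3.78 ± 0.40. Irf2bp2, a corepressor that binds Irf2, averaged 10.9 ± 3.04 TPM in LPS cells and 122 ± 37.4 TPM in mock cells at 4 h (SD, n = 2 each). Its log2 difference at 4 h was -3.36 ± 0.57, and -2.93 after rescaling, where it passed as well. At 12 h it was -0.60 and did not pass. Cul4b, a ubiquitin ligase scaffold, fell by 0.86 at 6 h, which is -0.42 relative to the median gene and did not pass after rescaling. Ptpn1, a phosphatase that acts on Janus kinases, fell by 0.76 at 4 h and rose at 9 h and 12 h, by 1.00 at 12 h; its 4 h value is -0.30 relative to the median gene and did not pass after rescaling. Nuclear partners were measured for 9 of 20 listed, of which 1, 1, 4, 3, 4 and 4 rose and 0, 0, 2, 1, 1 and 2 fell. After rescaling 1, 1, 4, 4, 5 and 5 rose and 0, 0, 1, 0, 0 and 0 fell, beside the counts of all genes given above. Nmi, which binds Stat proteins, rose by 2.84 ± 0.40 at 6 h, and its partner Ifi35 by 2.55 ± 0.50. The row of Junb, an AP-1 subunit, rose by 2.25 ± 0.22 at 1 h. Kpnb1, the importin beta subunit, fell by 1.07 at 4 h, Xpo1, the exportin, fell by 0.95 at 4 h and rose by 0.86 at 12 h, and Ptma, a small nuclear protein, fell by 1.36 at 12 h. Of these 3 falls that of Kpnb1 passed after rescaling (-0.62), while those of Xpo1 (-0.51) and Ptma (-0.99) did not.

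Of 14 listed Stat5 targets 2 were measured. Cd40, a costimulatory receptor, rose at all 6 times, by 5.13 at 1 h and 8.66 at 6 h, and Bcl2l1, a survival gene, rose at 2 h alone (1.07 ± 0.24, adjusted p = 0.00554), and after rescaling also at 4 h, 9 h and 12 h. Of 13 listed Irf4-associated dendritic cell genes 3 were measured. The lectin gene Clec10a fell from 4 h on and stood at -4.66 ± 0.36 at 12 h, its relative Mgl2 fell at 9 h and 12 h (-1.37 ± 0.34 at 12 h), and the protease gene Ctss passed at no time but was higher at 12 h after rescaling. The falls of Clec10a passed after rescaling at the same 4 times, and that of Mgl2 at 12 h alone.

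**Figure D4:**
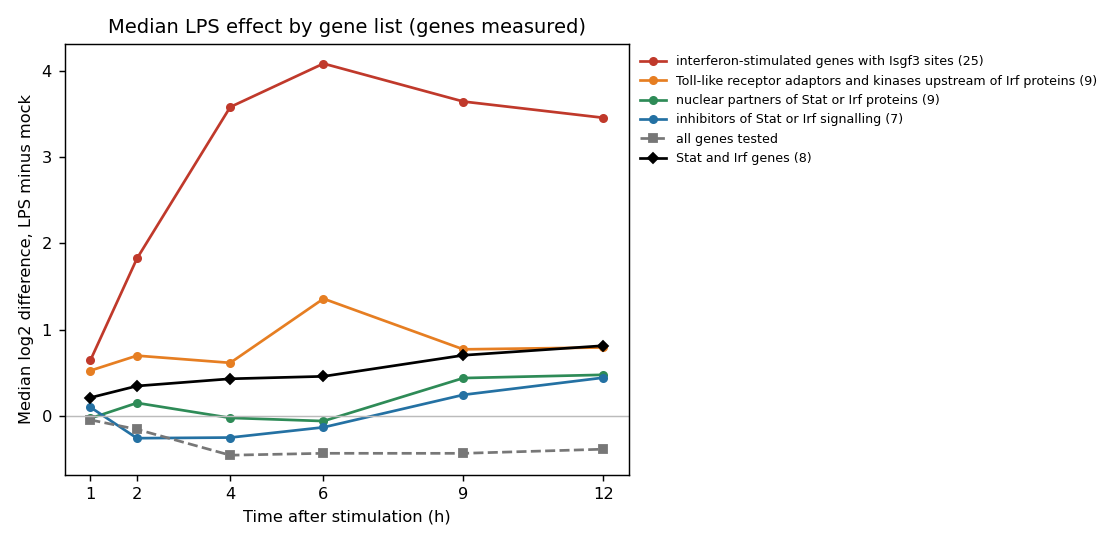
Median log2 difference of LPS minus mock (y axis) against time in hours for the 8 Stat and Irf genes (black), for 4 lists of pathway genes with the number measured in brackets, and for all genes tested (grey, dashed). Interferon-stimulated genes reach a median of 4.09 at 6 h, the Stat and Irf genes 0.81 at 12 h, and all genes stay at or below 0.

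Resting cells were also read by ribosome footprints, which show where mRNA is being translated. Irf5 had 123 and 128 TPM of footprints in replicates 1 and 2, Irf4 110.1 and 125 and Irf2, a repressor of interferon genes, 68.0 and 80.2. Stat3 had 70.8 and 71.8, Stat6 67.6 and 68.2, Irf1 33.7 and 32.4, Stat2 33.2 and 32.8 and Irf8, a factor of dendritic cell development, 35.4 and 29.2. Stat5a had 33.0 and 29.7, Stat5b 26.6 and 24.6, Irf3 23.4 and 21.2 and Irf9, a DNA-binding subunit of Isgf3, 23.3 and 16.7, the lowest mean of the 12. Stat2 and Irf9 were thus both read on ribosomes before stimulation, as were Irf1, Irf2 and Irf8, whose RNA was not analysed here.

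Footprints were compared with 0 h RNA over 2896 genes present in both tables, with each library centred on its median gene because the tables list different genes. Of the 8 members 4 were higher in footprints, against 14.1% of the shared genes, and 1 was lower, against 13.6%. Irf4 was higher by 1.27 ± 0.27 (adjusted p = 0.0234), Stat5b by 1.22 ± 0.29 (adjusted p = 0.0308), Stat5a by 0.92 ± 0.27 (adjusted p = 0.0479) and Stat3 by 0.81 ± 0.22 (adjusted p = 0.043). Irf5 was lower, at -1.08 ± 0.23 (adjusted p = 0.0242), so the member with the most RNA had the lowest footprint level for its RNA. Irf3 at 0.48, Stat6 at 0.19 and Stat2 at 0.18 did not pass. With a term for the replicate number the Stat3 call was lost (limma adjusted p = 0.0541). Footprint libraries were depleted of rRNA and RNA libraries poly(A)-selected, so a difference of assay cannot be told apart from one of translation. The uncertainty from sequence shared by Stat5a and Stat5b applies to their footprints as well. These calls depend on which libraries supply the spread, since without 1 library of a kind it comes from the pair of the other kind alone. Without footprint replicate 1 or 2 the calls were lost, with Irf4 at 1.33 and 1.21 and Irf5 at -1.08 in both. Without 0 h replicate 1, Irf3 was 0.98 and Stat2 0.39. Without 0 h replicate 2, Irf3 was -0.03 and Stat2 -0.04. Member counts of these fits are not read, since the share of all shared genes passing in them is not given. Without centring 1 passed, Irf5 at -1.93. Footprints over RNA changed by -0.10 on the log2 scale per doubling of coding length, over 2731 genes with a length.

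**Figure D5:**
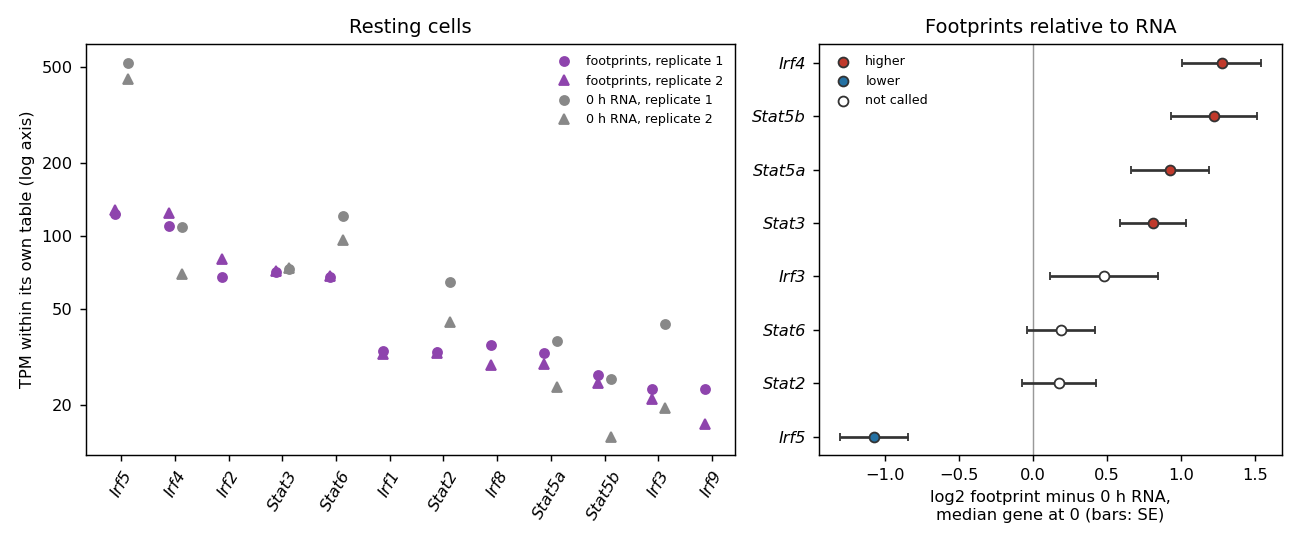
Left, ribosome footprints (purple) and 0 h RNA (grey) of each member in TPM within its own table (log axis), ordered by footprint mean, with circles for replicate 1 and triangles for replicate 2. Right, log2 of footprints minus 0 h RNA with the median gene at 0 and bars of 1 standard error, where Irf4 is at 1.27 and Irf5 at -1.08.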

How the data were processed

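RNA was measured in 26 libraries (13 groups of 2) and ribosome footprints in 2. RNA libraries were poly(A)-selected and strand-specific and footprint libraries were depleted of rRNA, per the labels' protocols. The authors deposited RNA values in TPM, made with RSEM 1.2.3 after Bowtie 0.12.7 alignment to mm9, per the submitters' processing notes; the notes list a further RSEM entry whose version is unclear. The deposited footprint table names no unit, and its values are treated as TPM since both columns total 1000000; Bowtie2 and TopHat2 are named in the submitters' processing notes, without versions. TPM keeps no depth, so no counting error or floor is given, and precision rests on 2 libraries per group. Hour 5 stands in the descriptions of samples that all other labels and the table give as 4 h, which was followed. The 0 h values are listed once for each arm, with a difference of 0, and entered the fit a single time.

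Rows with at least 1 TPM in 2 libraries were kept (all 3147), transformed to log2(TPM + 1) and fitted in limma 3.58.1 (R 4.3.3) with 1 mean per group, a variance trend and 13 residual degrees of freedom. Contrasts were LPS minus mock at each time and their F test, late minus early, successive LPS times and mock minus 0 h, with Benjamini-Hochberg adjustment over all genes. Footprints were set against 0 h RNA in a separate fit of 4 libraries. Rows of the 2 tables were matched by their sets of names. The fits were tried on simulated data with independent noise and no shared replicate effect. Only some of the contrasts were tried, and the footprint case took its spread from the RNA libraries without centring. Some genes are not reported here and are left out of the counts over members and lists. The members and lists were chosen with earlier results of these data known. Named genes were every member, the 3 non-members most alike in pattern, and from each list the 3 measured genes with the largest late effect among those called, plus up to 3 that fell from 4 h on. In the labels, libraries of different groups share only a replicate number, and they were not treated as pairs. Differences between replicates 1 and 2 that recur across groups therefore stay in the residual spread. Tried as well were other pseudocounts (0.1 and 5), a 10 TPM minimum, no filter, quantile normalization, rescaling by median ratio, a term for the replicate number, fits limited to the 2 groups compared, footprints without centring, and leaving out each library. Promoters and gene neighbours came from RefSeq for GRCm38.p6 and coding lengths from a GENCODE annotation, both of a later build than mm9, so no coordinate was carried between builds. Python 3.11.15 and matplotlib 3.10.9 drew the figures.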

Additional observations from a re-analysis of the deposited data

Results flagged for a closer look

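For 4 members the LPS effect differed between late (6, 9 and 12 h) and early (1 and 2 h) times by limma's test of the difference itself, with adjusted p over all genes. The late minus early difference was 1.77 for Stat2 (late 3.21, early 1.44), 1.21 for Stat3 (1.35 and 0.15), 0.55 for Irf5 (0.12 and -0.43) and -1.22 for Irf4 (-0.19 and 1.02). The largest adjusted p of the 4 was 0.00873, for Irf4. All 4 kept their direction and their call without each of the 20 libraries in turn, with Irf4 between -1.34 and -1.09 and Irf5 between 0.51 and 0.59. The median over all genes was -0.32, so relative to the median gene the fall of Irf4 is smaller and the rise of Irf5 larger.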

How the results depend on the processing

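Of 930 values recomputed, 471 were of called results; 38 changed direction, 1 of them called (Stat3 in footprints without centring, -0.042), 47 lost a call and 24 gained one; the causes were not tested. With median-ratio rescaling and quantile normalization the direction turned for Stat5b at 1 h (0.0079 and 0.064; also 0.013 with a pseudocount of 5), Stat6 at 4 h (0.41 and 0.16) and 9 h (0.29 and 0.058), and Irf3 at 6 h (0.044 and 0.29), 12 h (0.18 and 0.33) and late minus early (0.015 and 0.18). With median-ratio rescaling alone it turned for Irf5 (0.38) and Stat6 (0.21) at 6 h, and with quantile normalization alone for Stat3 at 1 h (-0.0045). Without centring, footprints minus RNA were -0.37 for Irf3, -0.68 for Stat2 and -0.66 for Stat6, and 1 member passed.

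Fits to the 2 groups alone gave 0 rises at 1 h, 2 at 9 h, and 0, 2 and 0 falls at 2, 4 and 6 h. The counts over all genes in those fits are not given here. Median-ratio rescaling gave 0 falls at 4 h, at 6 h and between 2 h and 4 h. Of all genes 405, 464 and 113 fell there. Quantile normalization gave 0 falls at 6 h and between 2 h and 4 h, where 509 and 81 of all genes fell. Late minus early, 257 genes rose and 699 fell, against 418 and 331 after median-ratio rescaling. A replicate block was tried, though the shared numbers were not treated as pairs. It gave 3 falls at 4 h, 2 falls between 1 h and 2 h and 1 rise between 4 h and 6 h. Of all 3147 genes it called 1414 falls, 303 falls and 21 rises in these comparisons. Under it Irf4 (adjusted p = 9.64e-04) and Irf3 (0.0314) passed as lower at 4 h, Stat5b as higher at 2, 4 and 6 h (0.0199, 0.0205 and 0.0134) and late minus early (0.0452), and the Stat3 footprint call was lost (0.0541). Correlations of replicate differences between LPS and mock were 0.227 to 0.685.

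Without 1 library at a time, LPS minus mock at 1 h ranged from -0.024 to 0.66 for Stat2, -0.053 to 0.19 for Stat3 and -0.65 to 0.63 for Stat5b. Stat6 ranged from -0.017 to 0.47 at 2 h, -0.17 to 0.095 at 4 h, -0.43 to 0.15 at 9 h and -0.016 to 0.47 at 12 h. Irf4 ranged from -0.28 to 0.29 at 9 h and -0.025 to 0.74 at 12 h. Irf3 ranged from -1.61 to 0.17 at 9 h, -0.59 to 0.25 at 12 h and -0.59 to 0.0047 late minus early. Footprints minus RNA ranged from -0.027 to 0.98 for Irf3 and -0.035 to 0.39 for Stat2, with 0 to 7 members called. Member counts ranged from 1 to 2 rises at 1 h, 0 to 1 falls at 2 h, 1 to 2 at 4 h, 0 to 0 at 6 h and 0 to 1 at 9 h. They ranged from 0 to 2 rises between 0 h and 1 h, and from 0 to 1 rises and 0 to 1 falls between 2 h and 4 h. The shares of all genes called in these fits are not given here, so the member counts have no background. Depth is unknown, and 2 libraries per group limit what can be called.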
